A study of Salmo salar with 59 samples.

Results

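Testes of Atlantic salmon at early puberty were set against immature testes to see which genes differ first as the testis begins to mature. Of the 59 one-colour Agilent arrays of the series, the 17 that carry RNA of early pubertal or immature testis entered the comparison, with 1 fish on each array. The early pubertal group was fish 184, 190 and 213, chosen because their testes formed a larger share of body mass than in any immature fish but a smaller share than in the 3 late pubertal fish. They were set against 14 immature fish, all labelled Stage I. A further 3 late pubertal fish, 202, 211 and 245, are given beside the early fish to show how levels differed in relatively larger testes.

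All were male farmed post-smolts, which are young salmon adapted to salt water, kept in brackish water in flow-through tanks and sampled after 18 weeks. Early fish 184 and 190 (labelled Stage IV) came from constant light (group A) and fish 213 (labelled Stage III) from increasing light (group B). Immature fish came from constant light (fish 188 and 250), increasing light (fish 160 and 203) and decreasing light (the other 10, of which 5 in group E had a low-fat diet). Late fish 245 (labelled Stage IV) came from constant light and fish 202 (Stage V) and 211 (Stage IV) from increasing light. The early and late groups thus overlap in these sample labels and were parted by the testis share of body mass. By the most advanced germ cell, the study scored fish 184 and 190 at stage IV, fish 213 at stage III and all late fish at stage V. By the dominating germ cell, it scored fish 184 at stage II and the other early and late fish at stage III. No early fish was kept under decreasing light, so the light regime and maturity cannot be told apart over all 17 arrays. Fish 160, and either fish 203 or fish 250, which the sources name differently, were listed as immature with well-defined tubules and dividing spermatogonia. Oocytes were listed in the testes of immature fish 198, 255 and 221. The array titled as fish 226 carries fish 236 in another label, and both are immature.

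The fish testis holds germ cells in cysts enclosed by Sertoli cells within tubules, while Leydig cells, which make androgens, lie between the tubules with vessels and immune cells. At puberty spermatogonia multiply, enter meiosis and become spermatids that build a flagellum, so germ cells fill a growing share of the organ. In a bulk sample of testis, fewer cells of a type and less RNA per cell cannot be told apart. Signals are on the log2 scale relative to the array's 75th percentile, so 0 is the signal at that percentile. The log2 expression ratio (log2-ER) is the early pubertal mean minus the immature mean and is given with its standard error from limma. A probe was called where the Benjamini-Hochberg adjusted p was below 0.05 and the log2-ER was beyond 0.8 either way. The germ cell gene ddx4 and the Sertoli cell genes amh and inha were well above background on all 17 arrays. So were the pituitary genes lhb and pomca, so detection alone cannot check the tissue label. Lists of genes were made up by known function, with 1 probe taken per gene.

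Early pubertal testis differed widely from immature testis. Of the 36647 probes tested, 18155 (49.5%) were called, of which 8808 (24.0%) were higher and 9347 (25.5%) were lower in early pubertal testis. The median log2-ER of the higher calls was 1.29 and that of the lower calls was -1.73. Changes over 8-fold numbered 131 among the higher and 1034 among the lower calls, and on 326 of these 1034 the probe was not well above background in any early fish. The values of all 3 early fish lay outside the range of the 14 immature fish for 5201 of the higher calls (14.2% of probes tested) and 5369 of the lower calls (14.7%). The median log2-ER over all probes was 0.16 with this scaling and 0.43 with arrays scaled to their median, and higher calls were 48.5% of the total in one case and 61.7% in the other. With normexp background correction 8162 probes were called, of which 59.5% were higher. The count was 11762 with the authors' processed values and 10436 when the 3 early fish were compared only with the 4 immature fish under constant or increasing light, with the regime as a block. The 75th percentile of the signal was 153.2 to 321.8 on early and 160.1 to 479.4 on immature arrays, and no spot was saturated. Spots well above background were 65.6% to 75.8% on early arrays, lowest in fish 190, and 66.5% to 84.1% on immature arrays. Of 23928 probes well above background on every array of this comparison, 7182 were called higher and 5169 lower in early pubertal testis. Higher calls were thus 58.1% of the calls among these probes, against 48.5% in the main fit. The part of the difference between arrays in the calls was not tested further. Fish 184 was the only early fish of the smaller of 2 scan batches.

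**Figure D1:**
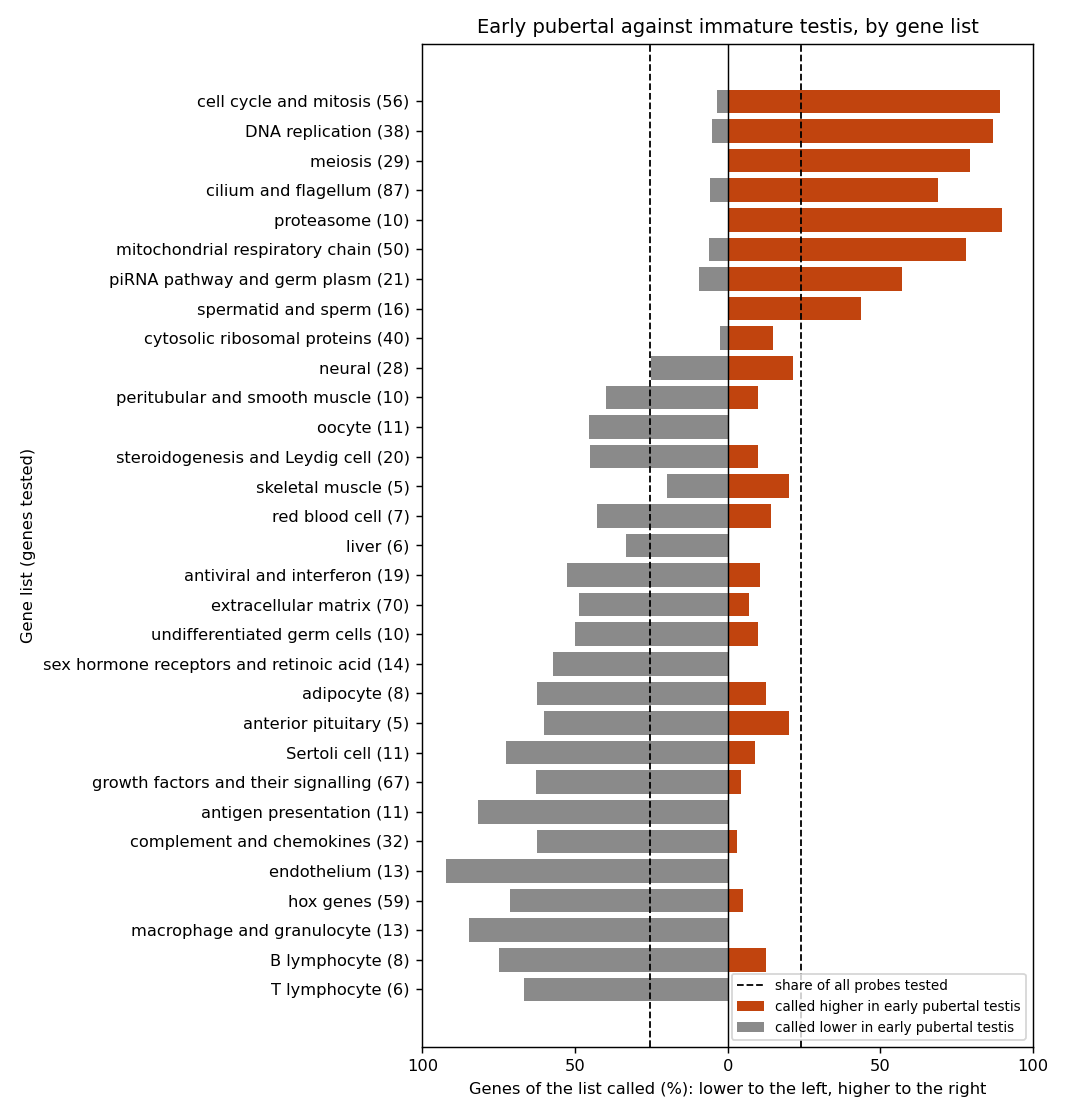
Share of the genes of each list that were called higher (right, orange) or lower (left, grey) in early pubertal testis against immature testis, with the number of genes tested in brackets and dashed lines at the shares over all probes tested, 24.0% and 25.5%. Cell cycle, DNA replication and proteasome lists lie farthest to the right, and endothelium and macrophage lists farthest to the left.

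The genes of cell division were higher in early pubertal testis. Of 56 tested genes of the cell cycle and mitosis, 50 were higher and 2 were lower, with a median log2-ER of 2.05. Of 38 genes of DNA replication, 33 were higher and 2 were lower, with a median of 1.81. Among all genes with a symbol, 32.3% were higher and 23.7% were lower. The members ranged up to borea, which encodes borealin, a subunit of the chromosomal passenger complex that guides chromosome segregation. Its signal was 4.46, 5.42 and 6.01 in early fish 184, 190 and 213, against a lowest, median and highest value of 0.81, 1.18 and 3.77 in immature fish (log2-ER 3.90 ± 0.45 SE, adjusted p = 1.02e-06). All early fish were above the highest immature fish, which was fish 160.

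Cyclin D3 (ccnd3), which drives cells into S phase, had the widest gap in this list. It read 3.55, 4.08 and 4.16 in the early fish and 0.23, 0.68 and 1.18 at the lowest, median and highest immature fish (log2-ER 3.27 ± 0.18, adjusted p = 8.17e-10). Fish 160 stood at 0.76 for ccnd3, inside the immature range. The condensin subunit gene ncapg (log2-ER 3.13 ± 0.29) and the centromere protein gene cenps (3.11 ± 0.32) were also higher, with no overlap between the groups. The exceptions were ccnd1 (-1.86 ± 0.21) and cdk6 (-1.85 ± 0.19), another D-type cyclin and one of its kinase partners, both lower in early pubertal testis. They are singled out here after their values were seen, and the call of cdk6 was lost with normexp background correction.

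DNA ligase 1 (lig1), which joins the fragments of the lagging strand, showed the replication genes at their clearest. The early fish read 5.06, 5.64 and 5.69 and the immature fish 2.12, 2.63 and 3.59 (lowest, median, highest), with a log2-ER of 2.81 ± 0.23 (adjusted p = 3.35e-08). Even the least changed early fish was above all immature fish. Dihydrofolate reductase (dhfr), needed to make thymidylate, was 2.74 ± 0.35 higher, and gins4, part of the replicative helicase, was 2.61 ± 0.31 higher. Thymidylate synthase (tyms) had a larger log2-ER of 3.04 ± 0.44, but its groups overlapped. Fish 184 read 3.47 for tyms, below the 3.58 of immature fish 160.

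Lists for energy supply and protein turnover went the same way. Of 50 genes of the mitochondrial respiratory chain, 39 were higher and 3 were lower (median 1.23), and of 10 proteasome genes 9 were higher and 0 were lower (median 1.25). Cytochrome c1 (cyc1) read 4.97, 5.22 and 5.71 in early fish, against 2.84, 3.35 and 4.10 at the lowest, median and highest immature fish (log2-ER 1.95 ± 0.22, adjusted p = 8.72e-07). The groups did not overlap for cyc1. Among the exceptions cox4i1l, named as a form of a cytochrome c oxidase subunit, was lower by far (log2-ER -2.80 ± 0.20). With quantile normalization 15 genes of the respiratory chain and 2 of the proteasome were called higher. Cytosolic ribosomal protein genes moved less, with 6 of 40 higher, 1 lower and a median of 0.54. Without early fish 213, in which their median was -0.09 against 0.84 and 0.88 in fish 184 and 190, 24 of the 40 were called higher.

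The largest rises outside the lists included several proteins of chromatin. LOC106608632 and LOC106577590, both annotated as H2A histone family member Vb, had log2-ERs of 3.93 ± 0.38 and 3.92 ± 0.38, and a gene annotated as Histone H4 had 4.64 ± 0.70. The actin-binding protein gene marcksl1b read 6.13, 6.77 and 6.93 in early fish and 1.82, 2.30 and 4.49 (lowest, median, highest) in immature fish (log2-ER 4.23 ± 0.38, adjusted p = 7.97e-08). Here too the highest immature fish was fish 160. LOC106586236, annotated as Cell division cycle associated 7a, separated the groups more widely, with 6.52, 6.96 and 6.79 in early fish and 4.08 at most in immature fish (log2-ER 3.67 ± 0.22, adjusted p = 2.82e-09). LOC106577137, annotated as the spindle motor kinesin KIF11, was 2.85 ± 0.20 higher. Its early values of 2.22, 2.18 and 2.32 lay close together, and the highest immature fish read -0.21.

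For 7 of the higher calls no immature fish had a signal well above background, so the difference is only a lower bound. The sodium phosphate cotransporter gene npt2a was at least 18.6-fold higher and urah, whose product acts in uric acid breakdown, was at least 7.73-fold higher in early pubertal testis. These bounds compare the early mean with the lowest signal that is well above background on each immature array, or the probe's own signal if that is higher. With no immature fish well above background, the filter let such a probe be tested only if all early fish were. These probes were thus selected through the early group, and their adjusted p do not allow for that. A probe below background in all early fish could pass the filter on some of the immature fish alone. The adjusted p were 1.16e-08 for npt2a and 2.74e-06 for urah, and both calls were lost with normexp correction. Others with a wide gap between the groups were lemd1 (3.54 ± 0.26), zte38 (3.58 ± 0.17) and a gene annotated as Nucleoprotein TPR (3.89 ± 0.37), a part of the nuclear pore.

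Genes of meiosis were higher as well, at a point where the early testes differ from the late ones. Of 29 tested genes, 23 were higher and 0 were lower in early pubertal testis, with a median log2-ER of 1.62. The synaptonemal complex, which holds paired chromosomes together, was represented by sycp2 and sycp3. The sycp3 probe read 1.86, 2.12 and 2.39 in early fish and 0.13, 0.47 and 0.73 at the lowest, median and highest immature fish (log2-ER 1.65 ± 0.16, adjusted p = 2.04e-07). The early fish stood above the immature range without overlap. For sycp2 the log2-ER was 2.79 ± 0.19.

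The breaks that start recombination are made by spo11 with rec114. The early fish read 0.89, 0.64 and 1.71 for spo11, against -1.49, -0.96 and -0.47 at the lowest, median and highest immature fish (log2-ER 2.05 ± 0.21, adjusted p = 3.48e-07). The groups did not overlap. Meiotic cohesin rec8b and rec114 had larger log2-ERs of 3.31 ± 0.31 and 3.30 ± 0.34, and in both fish 213 was far above the other early fish. For rec8b fish 184 and 190 both read 0.16 and fish 213 read 1.97, while the immature fish lay between -3.12 and -1.86. The anaphase inhibitor gene fbxo5 had the same order among early fish, with 0.09, 1.14 and 2.82.

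Genes of the cilium, the structure from which the sperm flagellum is built, were higher on balance with some clear exceptions. Of 87 tested genes 60 were higher and 5 were lower, with a median log2-ER of 1.31. Enkurin (enkur), a protein of the axoneme, read 3.70, 3.46 and 3.83 in early fish and 0.02, 0.52 and 0.98 at the lowest, median and highest immature fish (log2-ER 3.16 ± 0.19, adjusted p = 1.97e-09). No immature fish came near the early fish. The dynein light chain gene dnal4 (3.09 ± 0.22) and zmynd10 (3.01 ± 0.20), needed to assemble dynein arms, were similar in size. The microtubule protein gene tekt1 was 1.40 ± 0.20 higher.

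Among the exceptions of the cilium list, tektl1 was at least 1.96-fold lower in early pubertal testis, where it was not well above background in any fish (adjusted p = 5.52e-07). The dynein heavy chain gene dnah3 (-2.49 ± 0.31) and cfap99 (-2.43 ± 0.33) were also lower. All of these were higher in late than in early pubertal testis, tektl1 by at least 9.66-fold and dnah3 and cfap99 by 4.05 and 3.33 on the log2 scale. The transcription factor gene foxj1a, which switches on motile ciliogenesis in other vertebrates, was not well above background in any early fish but was so in 8 of 14 immature fish (log2-ER -0.80 ± 0.41, adjusted p = 0.103).

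Of 16 genes of spermatids and sperm, 7 were higher and 0 were lower, with a median of 0.54. The largest was spata17, with 3.14, 2.89 and 3.74 in early fish and 0.20, 0.93 and 1.21 at the lowest, median and highest immature fish (log2-ER 2.39 ± 0.21, adjusted p = 7.49e-08). The groups did not overlap. The next were spata6l (2.21 ± 0.25), ubxn10 (1.5 ± 0.25) and spata7 (1.43 ± 0.21).

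**Figure D2:**
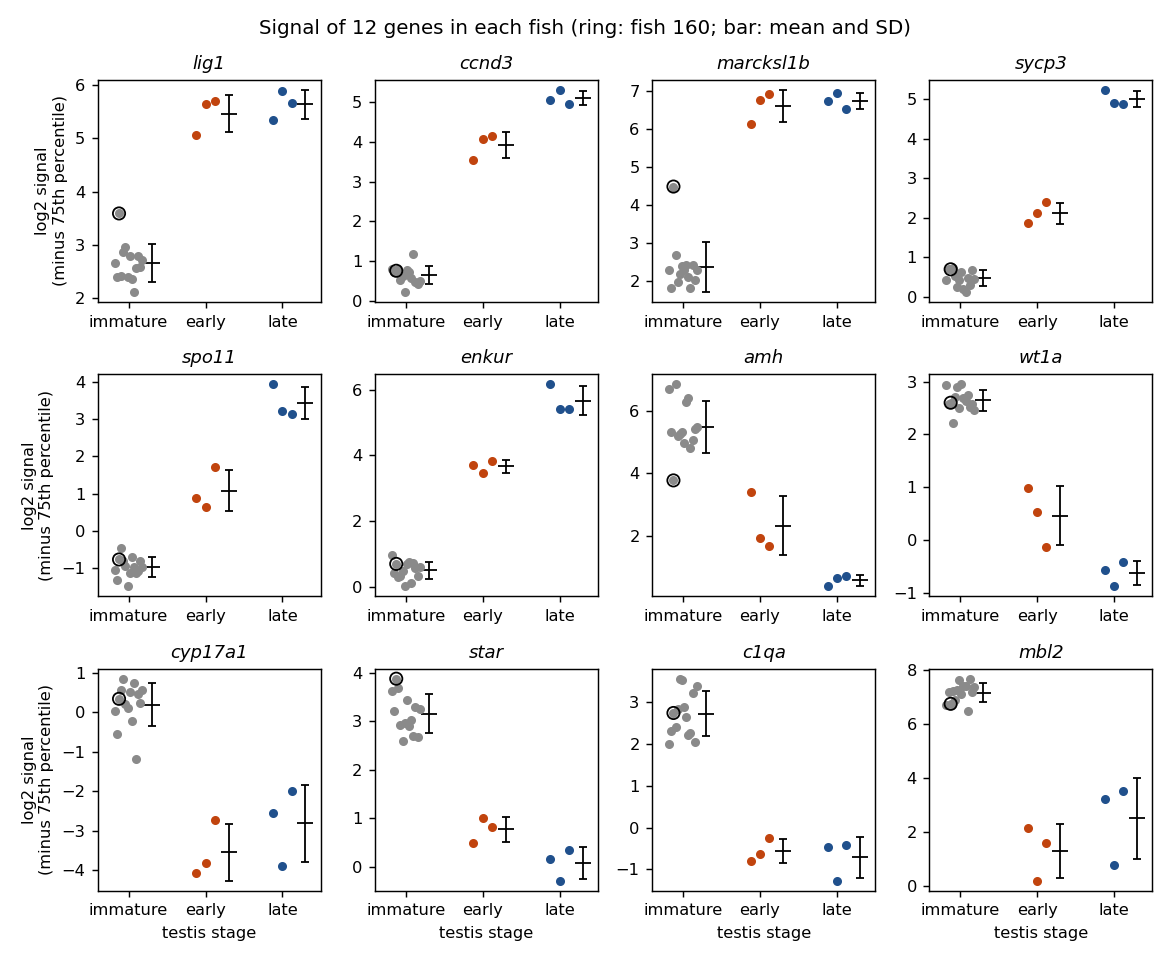
Signal of 12 genes in each testis array (log2, relative to the array's 75th percentile) for 14 immature, 3 early and 3 late pubertal fish, with a bar for mean and SD and a ring around immature fish 160. The early fish lie above all immature fish for lig1, ccnd3, marcksl1b, sycp3, spo11 and enkur and below all of them for amh, wt1a, cyp17a1, star, c1qa and mbl2.

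Genes that mark germ cells in general were split. The piRNA pathway silences transposons in germ cells, and of 21 genes of that pathway and of germ plasm 12 were higher and 2 were lower (median 0.96). The RNA helicase vasa (ddx4), present throughout the germ line, read 8.17, 8.22 and 7.68 in early fish and 6.34, 6.61 and 7.02 at the lowest, median and highest immature fish (log2-ER 1.39 ± 0.17, adjusted p = 1.65e-06). The groups were apart. Tdrd12 (2.08 ± 0.30), fkbp6 (2.03 ± 0.17) and exd1 (1.79 ± 0.26), which act in piRNA production, were higher too. The Piwi protein gene piwil1 was close to the limit (1.0 ± 0.32, adjusted p = 0.0125), its groups overlapped, and its call was lost when early fish 184 or 190 was left out. The tudor gene tdrd6b was at least 3.93-fold lower, not being well above background in any early fish. When the comparison was kept to light groups A and B, 6 genes of this list were called higher, and 7 were with the authors' processed values.

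Markers of undifferentiated germ cells leaned the other way, with 5 of 10 lower, 1 higher and a median of -1.0. Dead end (dnd1), needed for germ cell survival in fish, read -1.28, -2.16 and -2.01 in early fish and -0.66, -0.39 and 0.78 at the lowest, median and highest immature fish (log2-ER -1.57 ± 0.25, adjusted p = 3.11e-05). All early fish were below the immature range. The bcl6b gene, known in mouse for spermatogonial stem cell upkeep, had a log2-ER of -2.13 ± 0.28. The growth factor receptor gene ret was -1.78 ± 0.19. The transcription factor gene eomes (-2.52 ± 0.37) was well above background in 1 early fish. With normexp correction 3 genes of this list were called lower.

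Among 11 oocyte genes, 5 were lower and 0 were higher (median -0.56). The oocyte transcription factor gene lhx8a was -2.17 ± 0.21 and the oocyte growth factor gene gdf9 was -2.15 ± 0.34. For gdf9 the early fish read -2.80, -4.66 and -4.12 and the immature fish -2.63, -1.64 and -0.93 at the lowest, median and highest. Late fish 202, 211 and 245 read 0.17, -0.60 and -1.01 for gdf9, 3.38 ± 0.44 above the early fish (adjusted p = 1.6e-05). Of the 11 oocyte genes 1 was higher and 3 were lower in late than in early testis. The rest of this paragraph concerns the immature fish and the early comparison. The highest value for gdf9 was in fish 203 and the lowest in fish 160, so for this gene the fish listed with oocytes were at neither end. The oocyte genes mos and zar1l were highest in fish 221, which was listed with oocytes, and lhx8a in fish 226. For zar1l fish 221 read -0.73, against an immature median of -2.65. Without fish 198, 255 and 221 there were 5 oocyte genes called lower, and with normexp correction 2.

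Sertoli cell genes were lower in early pubertal testis. Of 11 tested genes 8 were lower and 1 was higher, with a median log2-ER of -1.24. Anti-Müllerian hormone (amh), which Sertoli cells secrete and which restrains germ cell differentiation in fish, read 3.41, 1.92 and 1.66 in early fish and 3.77, 5.33 and 6.84 at the lowest, median and highest immature fish (log2-ER -3.15 ± 0.50, adjusted p = 3.39e-05). All early fish were below the lowest immature fish, which was fish 160. Fish 184 was closest to the immature fish. Probes for gsdf, fshr and dmrt1, other markers of these cells, were not analysed here. The transcription factor gene wt1a read 0.99, 0.52 and -0.13 in early fish and 2.22, 2.61 and 2.95 in immature fish (log2-ER -2.18 ± 0.19, adjusted p = 6.67e-08), again without overlap.

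Subunits of activin and inhibin, hormones that act on the pituitary and locally, were lower. The activin subunit gene inhbab was -2.19 ± 0.37 and its paralog inhbaa -1.95 ± 0.32, with overlap for inhbaa. The inhibin subunit gene inha differed less. It read 5.83, 5.14 and 5.14 in early fish and 5.76, 6.30 and 6.63 at the lowest, median and highest immature fish, so fish 184 lay inside the immature range (log2-ER -0.91 ± 0.20, adjusted p = 0.000918). The call of inha was lost without early fish 190 or 213, which both read lower than fish 184.

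Igf3, a growth factor of fish gonads that promotes spermatogonial division, was the exception among Sertoli cell genes. It read -0.95, 1.71 and 0.17 in early fish and -2.5, -1.88 and 1.89 at the lowest, median and highest immature fish (log2-ER 1.94 ± 0.65, adjusted p = 0.0153). The highest value of all belonged to immature fish 160. The call was lost without early fish 190, with light groups A and B alone and with normexp correction.

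Steroidogenic genes were lower in part. Of 20 tested genes 9 were lower, 2 were higher and 9 were not called, with a median of -0.65. Cyp17a1, the enzyme that turns progestins into androgens, read -4.08, -3.83 and -2.72 in early fish, against -1.18, 0.29 and 0.85 at the lowest, median and highest immature fish (log2-ER -3.73 ± 0.35, adjusted p = 1.14e-07). The carrier that brings cholesterol into mitochondria, star, read 0.49, 1.01 and 0.81 in early fish and 2.60, 3.12 and 3.88 in immature fish (log2-ER -2.39 ± 0.25, adjusted p = 3.47e-07). Neither gene showed any overlap between the groups. The ferredoxin gene fdx1b (-3.65 ± 0.25), which feeds electrons to steroidogenic P450 enzymes, and the steroid reductase gene akr1d1 (-3.81 ± 0.32) were also lower.

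Hsd3b1 stayed under the limit. Its early values of 3.34, 3.54 and 2.97 were all below the immature range of 3.59 to 5.45 (median 3.91), with a log2-ER of -0.74 ± 0.29 (adjusted p = 0.0344). It passed the limit with quantile normalization, with the authors' values and without early fish 190. The receptor gene for luteinizing hormone, lhcgr (-1.61 ± 0.31), and the steroidogenic factor gene nr5a1b (-1.28 ± 0.32) were lower, while hsd17b3, which completes testosterone synthesis, had a log2-ER of 0.23 ± 0.25. These last genes were chosen after their values were seen.

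Of 14 genes of sex hormone receptors and retinoic acid, a signal that acts in germ cell entry into meiosis in mammals, 8 were lower and 0 were higher (median -1.0). The largest difference was rbp4, which carries retinol. It read -4.80, -2.15 and -3.94 in early fish and -0.29, 1.67 and 3.51 at the lowest, median and highest immature fish (log2-ER -5.36 ± 0.69, adjusted p = 3.49e-06). No early fish reached the immature range. The retinaldehyde reductase gene dhrs3 was -2.34 ± 0.21 and aldh1a2, which makes retinoic acid, -1.96 ± 0.45. The progestin receptor gene pgr had a log2-ER of -2.0 ± 0.50 with overlap, since fish 160 read -1.07. With normexp correction 5 genes of this list were called.

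Genes that direct development were lower in large part. Of 59 hox genes, which set position along the body axis, 42 were lower and 3 were higher. The median log2-ER was -2.08, or -1.10 with genes below background at their bound, because 25 of the 59 were not well above background in any early fish. Hoxc4aa was at least 10.7-fold lower (adjusted p = 1.69e-10), and its 14 immature values ran from -3.10 to -1.99 with a median of -2.38. Hoxd11a was at least 4.28-fold lower. With normexp correction 8 of the 59 were called lower and with the authors' processed values 13 were. The 3 that were higher, hoxc12aa (2.46 ± 0.69), hoxc12ab (1.79 ± 0.40) and hoxb13ab (1.13 ± 0.20), all lost their call with normexp correction.

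Other transcription factors, named for the size of their fall or the gap between the groups, were lower as well. The sp5a gene, a target of Wnt signalling, read -5.68, -6.97 and -7.46 in early fish and -1.92, 0.05 and 1.51 at the lowest, median and highest immature fish (log2-ER -6.77 ± 0.53, adjusted p = 2.06e-08). Irx1 (-6.18 ± 0.46), foxe3 (-5.15 ± 0.39), noto (-4.63 ± 0.28) and meox2b (-4.38 ± 0.36) were among them, and helt was at least 14.4-fold lower. The groups were apart for all of these, which was a condition for naming them. For sp5a, irx1, helt, foxe3 and noto the lowest immature fish was fish 160. The sp5a values of fish 190 and 213 were under the lowest signal well above background on their arrays (-5.154 and -6.171), so the size of its fall is uncertain.

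Of 67 genes of growth factors and their signalling 42 were lower and 3 were higher, with a median of -1.31 (-1.11 with bounds). The noggin gene nogg3, a BMP antagonist outside that list, read -3.11, -4.69 and -5.06 in early fish and -1.85, 2.04 and 2.61 at the lowest, median and highest immature fish (log2-ER -6.02 ± 0.64, adjusted p = 4.47e-07). The Wnt ligand genes wnt16 and wnt9a were at least 5.44-fold and at least 4.32-fold lower, the hedgehog ligand gene shhb at least 6.11-fold and the Wnt antagonist gene dkk1b at least 6.68-fold. Igf1ra, a receptor for insulin-like growth factor, was -3.42 ± 0.29 and tgfb1a -2.19 ± 0.24, both chosen after their values were seen. With light groups A and B alone 26 of the 67 were called lower, and with normexp correction 15 were.

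Extracellular matrix genes were lower in 34 of 70 cases and higher in 5, with a median of -0.95 (-0.74 with bounds). Lumican (lum), which organizes collagen fibrils, read 1.24, 2.97 and 3.22 in early fish and 4.76, 5.50 and 6.96 at the lowest, median and highest immature fish (log2-ER -3.05 ± 0.40, adjusted p = 4.04e-06). There was no overlap, and fish 184, with the lowest value, had changed most. The fibrillar collagen genes col1a1a (-2.37 ± 0.37) and col1a1b (-2.13 ± 0.32) were lower. So was col11a1a (-4.72 ± 0.38), which was well above background in 1 early fish. Normexp correction left 19 genes lower and the authors' values 22.

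Of 10 genes of peritubular and smooth muscle cells, 4 were lower and 1 was higher (median -0.36). Tropomyosin 2 (tpm2, -1.49 ± 0.25) and the myosin light chain gene myl9b (-1.25 ± 0.21) were lower, whereas smooth muscle actin (acta2) had a log2-ER of -0.07 ± 0.36.

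Markers of vessels were lower. Of 13 endothelial genes 12 were lower and 0 were higher (median -1.83), and the list medians of the early fish were -1.86, -1.84 and -1.99 relative to the immature mean. The transcription factor gene fli1 read -0.53, -0.20 and 0.04 in early fish and 1.79, 2.37 and 3.49 at the lowest, median and highest immature fish (log2-ER -2.64 ± 0.26, adjusted p = 1.78e-07). Kdr, a receptor for vascular growth factor, was -1.86 ± 0.19 and the adhesion molecule gene pecam1a -1.76 ± 0.22. The groups were apart for 11 of the 12 genes. Red blood cell genes were mixed, with 3 of 7 lower and 1 higher.

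Immune cell genes were also lower. Of 13 macrophage and granulocyte genes 11 were lower and 0 were higher (median -2.26), of 8 B lymphocyte genes 6 were lower and 1 was higher (median -2.35), and of 6 T lymphocyte genes 4 were lower and 0 were higher (median -2.87, or -2.0 with bounds). Complement component c1qa, made by macrophages in mammals, read -0.81, -0.62 and -0.24 in early fish and 2.01, 2.70 and 3.56 at the lowest, median and highest immature fish (log2-ER -3.27 ± 0.32, adjusted p = 1.66e-07). The B cell receptor subunit gene cd79b read -4.31, -3.97 and -3.69 in early fish, against -1.65, -0.46 and 0.63 in immature fish (log2-ER -3.47 ± 0.31, adjusted p = 8.65e-08). In both cases the groups were well apart. The granulocyte receptor gene csf3r was -3.34 ± 0.34 and the leukocyte phosphatase gene ptprc, which encodes CD45, was -2.99 ± 0.39. T cell genes were dim, cd3e (-3.43 ± 0.45) being well above background in 1 early fish, and with normexp correction 1 of them was called.

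Immature fish 193 had the highest immature median in the macrophage (0.93), B lymphocyte (0.77), T lymphocyte (1.12) and endothelial (0.66) lists. Fish 226 or 236 had the lowest in these lists. The immature spread in these lists was therefore wider than in the meiosis list, where all immature medians lay between -0.41 and 0.22. The early medians for macrophage genes, -2.46, -2.23 and -1.93, were still all below the lowest immature median of -0.58.

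Genes of antigen presentation and of antiviral defence were lower in most cases. Of 11 antigen presentation genes 9 were lower and 0 were higher (median -1.39). The invariant chain gene cd74a read 2.25, 2.27 and 3.04 in early fish and 4.66, 5.78 and 6.35 at the lowest, median and highest immature fish (log2-ER -3.21 ± 0.29, adjusted p = 9.15e-08), with no overlap. Of 19 antiviral and interferon genes 10 were lower and 2 were higher (median -0.90). The antiviral GTPase gene mx was -3.36 ± 0.26. Irf9, an interferon regulatory factor, read 0.56, 0.22 and -0.06 in early fish and 1.60, 2.24 and 2.64 in immature fish (log2-ER -1.98 ± 0.19, adjusted p = 1.42e-07), also without overlap.

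Complement and chemokine genes were lower in 20 of 32 cases and higher in 1 (median -1.73, or -1.36 with bounds). The list took in every symbol that starts with c1q, so it also counts genes that are C1q-like by name and not complement components. Among these c1ql2 was at least 6.74-fold and c1qtnf12 at least 3.73-fold lower. C1ql4 was lower too (-3.28 ± 0.85), with overlap between the groups. The terminal complement gene c7b was -4.62 ± 0.38. Mannose-binding lectin (mbl2), which starts a complement cascade and lies outside the list, was a bright gene with one of the deepest falls. It read 2.14, 0.20 and 1.60 in early fish and 6.49, 7.19 and 7.67 at the lowest, median and highest immature fish (log2-ER -5.84 ± 0.30, adjusted p = 4.97e-10). The gap between the groups was 4.35 on the log2 scale. With normexp correction 10 of the complement and chemokine genes were called lower.

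Marker lists for other organs and for nerve were also measured. Of 28 neural genes 6 were higher and 7 were lower (median -0.17). Of 5 pituitary genes 1 was higher and 3 were lower, and of 5 skeletal muscle genes 1 was higher and 1 was lower. Of 8 adipocyte genes 5 were lower and 1 was higher (median -1.16). The fatty acid binding protein gene fabp4 was the one that was higher, with 7.06, 7.69 and 7.01 in early fish, against 3.32, 3.85 and 6.21 at the lowest, median and highest immature fish (log2-ER 3.23 ± 0.40, adjusted p = 2.30e-06). Its highest immature value was in fish 160. Liver markers had a median of 3.44 in immature fish 198 and 3.20 in fish 226, while the other immature fish lay between -1.17 and 0.75 and early fish between -1.29 and -0.91. The liver apolipoprotein gene apoa2 read 5.30 in fish 198, and its fall (log2-ER -5.24 ± 1.83, adjusted p = 0.0201) was lost without early fish 184 or 190. The part of liver tissue in these values was not tested.

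The early fish were unequal. Among calls with a value in all 3 early fish, fish 213 had changed most for 4658 higher and 4636 lower calls. Fish 184 had changed least for 4736 and 4487 of them. These counts leave out 82 calls in which an early value was missing. Of all 8808 higher and 9347 lower calls, fish 184 lay within the range of the immature fish for 2332 (26.5%) and 2403 (25.7%). The numbers for fish 190 were 1387 (15.7%) and 2260 (24.2%), and those for fish 213 were 927 (10.5%) and 1200 (12.8%). Fish 213 carried the lower stage label of the 3, Stage III. By the dominating germ cell, however, the study scored fish 184 at stage II and fish 190 and 213 at stage III. The median correlation of fish 213 with the immature arrays, across probes, was 0.907, against 0.926 for fish 184 and 0.905 for fish 190.

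The gene lists did not all place the early fish in one order. The cell cycle medians were 1.62, 2.14 and 2.36 in fish 184, 190 and 213 relative to the immature mean, and those for DNA replication were 1.49, 1.83 and 2.14. The Sertoli cell medians were -0.77, -1.13 and -1.44 and those for antigen presentation -0.96, -1.70 and -1.93. In the cilium list the medians were 1.29, 1.15 and 1.47, and in the macrophage, B lymphocyte and T lymphocyte lists fish 213 had changed least. With 3 fish, 1 in another light group and 1 in another scan batch, these orders have no test.

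Among the immature fish, fish 160 was nearest to the early fish in several lists, those of cell division included. It was the highest immature fish for 3232 (36.7%) of the 8808 higher calls and the lowest for 4131 (44.2%) of the 9347 lower calls, and fish 203 came next for the higher calls with 1089 (12.4%). On the array of fish 160, 66.5% of spots were well above background, against 71.0% to 84.1% on the other immature arrays, and its median correlation with the immature arrays was 0.954, against 0.967 to 0.978 for the others. The part of this array in the counts was not tested, and how often it was at either end over all probes tested was not counted. Its median shift from the immature mean was 0.12 over the higher calls, against at most 0.06 in the other immature fish. Over the lower calls its median shift was -0.5, and no other immature fish was below -0.07. Its list median was 0.91 for the cell cycle and 0.82 for DNA replication, against at most 0.14 and 0.13 in the other 13 immature fish. The mitochondrial list (0.58) and the proteasome list (0.68) placed it first as well. It was the lowest immature fish in the lists of hox genes (-0.72), undifferentiated germ cells (-0.70), oocytes (-0.61) and red blood cells (-0.45). The same held for growth factors (-0.37), extracellular matrix (-0.37), complement and chemokines (-0.33) and antigen presentation (-0.19). It was also lowest in the neural list (-0.83), below early fish 184 (-0.19), 190 (-0.14) and 213 (-0.49). It lay at the end away from the early fish in the ribosomal list (-0.62, lowest). So it did in the lists of steroidogenesis and Leydig cells (0.29, highest) and skeletal muscle (0.58, highest). In the oocyte list it was below early fish 184 (-0.55) and 190 (-0.56). In the meiosis list, however, its median was 0.04, in the cilium list -0.25 and in the Sertoli cell list 0.04, all inside the immature range. Fish 203 and 250 had cell cycle medians of -0.37 and -0.24. Without fish 160 and 203 the number of calls was 18685, and without fish 250 as well it was 18578.

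**Figure D3:**
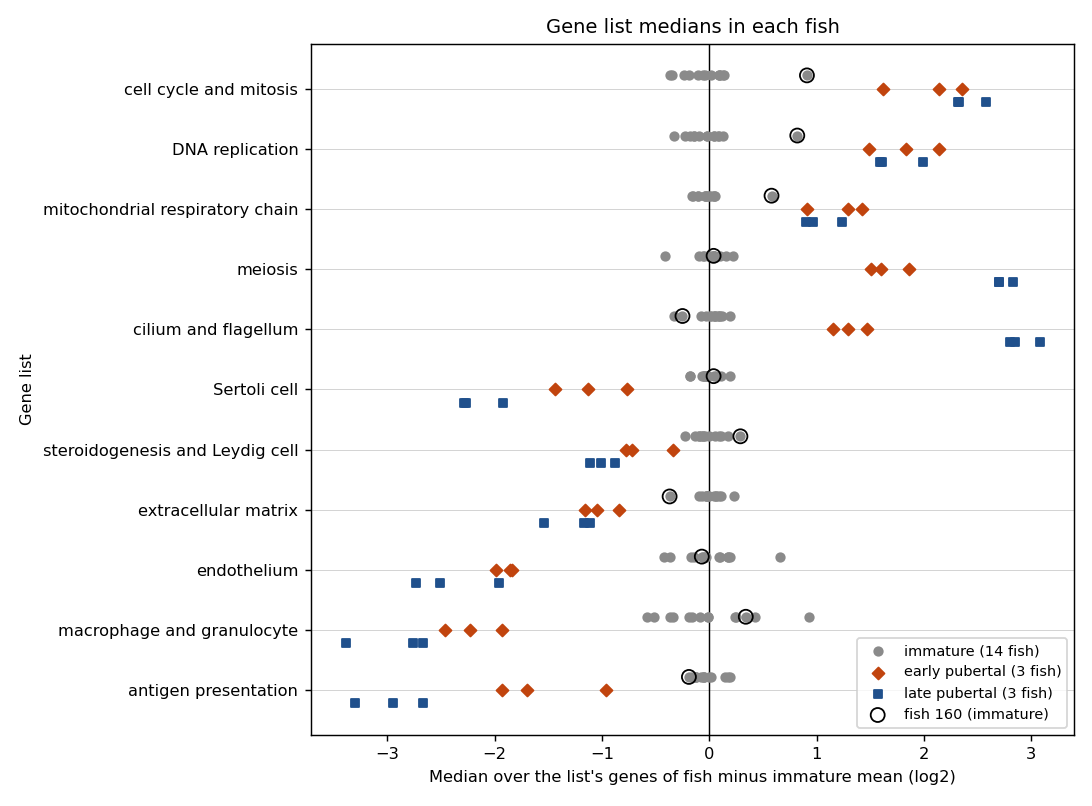
Median over the genes of a list of each fish's difference from the immature mean (log2), for 14 immature (circles), 3 early (diamonds) and 3 late pubertal fish (squares), with immature fish 160 ringed. Fish 160 stands apart from the other immature fish at 0.91 and 0.82 in the cell cycle and DNA replication lists but not in the meiosis list, at 0.04.

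The late pubertal fish were then set against the early ones to see which of these lists differed again between these groups. In a fit over all 20 testis arrays, 4452 of 37543 probes (11.9%) were higher and 2945 (7.84%) were lower in late than in early pubertal testis. This comparison shares the 3 early fish with the comparison above, so an error in an early value enters both with opposite sign, and the values are given side by side. Higher calls were 60.2% of the total, but 32.3% with arrays scaled to their median, where the median of all probes was -0.25. The number called was 4449 without late fish 202, 1918 from the 6 pubertal arrays alone and 1460 with normexp correction. Spots well above background were 71.7% to 86.6% on late arrays, highest in fish 202, against 65.6% to 75.8% on early arrays. Of 23494 probes well above background on all 20 arrays, 2636 were higher and 2864 were lower in late testis, so 47.9% of these calls were higher. The part of the difference between arrays in the calls was not tested further.

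Cell division genes differed little between early and late pubertal testis. Of 56 cell cycle genes 3 were higher and 1 was lower in late than in early testis, and of 38 replication genes 0 were higher and 1 was lower. Lig1 read 5.35, 5.89 and 5.67 in late fish 202, 211 and 245, a difference of 0.17 ± 0.29 (SE) from the early fish. The borealin gene borea differed by 0.70 ± 0.54. The late values of lig1 and borea overlapped those of the early fish. Ccnd3 was one of the 3 that were higher, by 1.18 ± 0.22 (adjusted p = 0.000818).

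Meiosis and cilium genes differed again. Of 29 meiosis genes 18 were higher in late than in early testis and 0 were lower, and of 87 cilium genes 66 were higher and 1 was lower. Sycp3 read 5.24, 4.90 and 4.89 in late fish, 2.89 ± 0.21 above the early fish (adjusted p = 7.52e-09). Spo11 was 2.36 ± 0.28 higher and enkur 2.0 ± 0.25 higher, and for these genes, as for sycp3, immature, early and late fish did not overlap. Other meiosis genes had a call in one of the comparisons but not in the other. The strand exchange gene mnd1 was 2.70 ± 0.19 higher in early than in immature testis and 0.08 different in late testis. In contrast ccna1, a cyclin of germ cells, had a log2-ER of 0.10 ± 0.28 in early testis and was 3.82 higher in late testis, and the crossover gene msh4 had 0.47 ± 0.17 and 2.5. These 3 genes were chosen after their values were seen.

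Sertoli cell genes were lower again in late testis, in 7 of 11 cases, with 0 higher. Amh read 0.39, 0.64 and 0.72 in late fish, -1.75 ± 0.61 relative to early fish (adjusted p = 0.0455). The late fish were all below the early fish for amh. Wt1a was -1.09 ± 0.25, gata4, a transcription factor of Sertoli and Leydig cells, was -1.30, and inha was -1.20 ± 0.26 in late relative to early testis. Antigen presentation genes were also lower in 7 of 11 cases. Macrophage and endothelial genes were lower in 2 of 13 cases each, B lymphocyte genes in 3 of 8 and T lymphocyte genes in 0 of 6. The shares over all probes were 7.84% lower and 11.9% higher. Of 59 hox genes 13 were higher and 0 were lower. As 25 of the 59 were not well above background in any early fish, a further fall in those could hardly be seen.

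**Figure D4:**
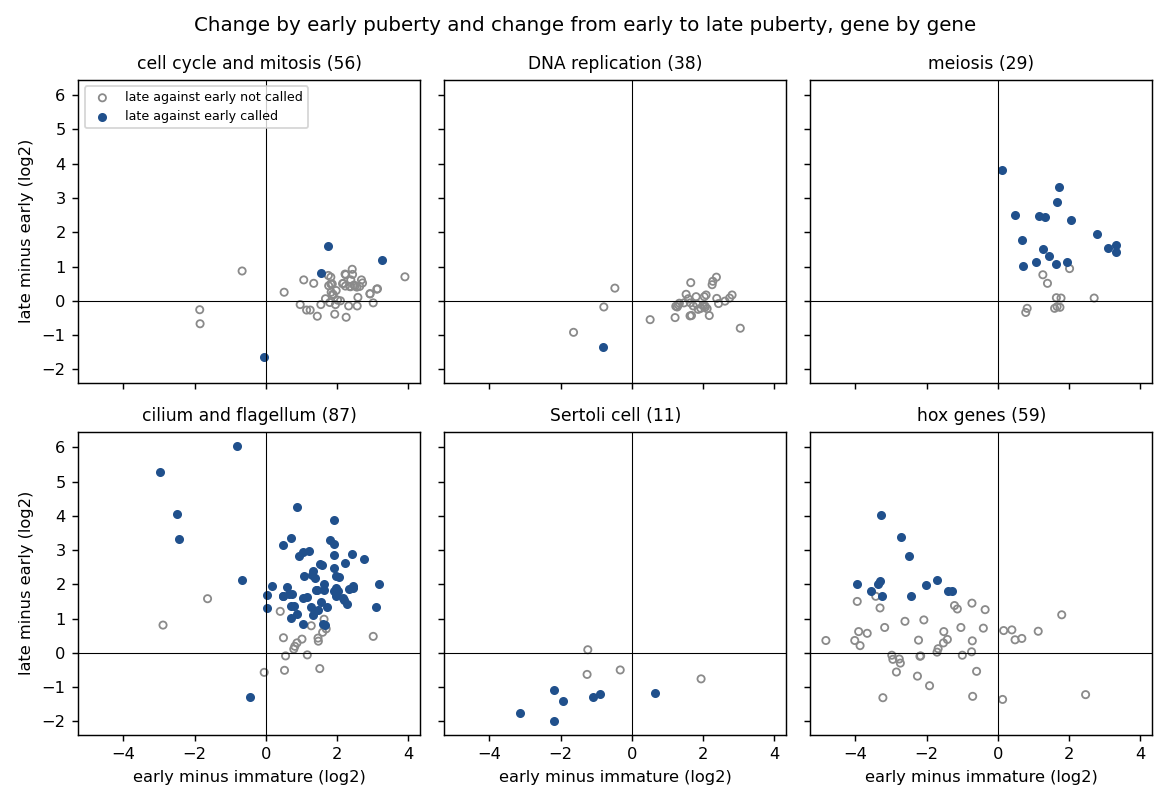
For each gene of 6 lists, the difference early minus immature (x axis, log2) and late minus early pubertal testis (y axis, log2), with filled points for genes called late against early. The cell cycle and DNA replication genes lie to the right near 0 on the y axis, whereas most meiosis and cilium genes lie to the right and above 0 and the Sertoli cell genes to the left and below 0. Both axes use the same 3 early fish.

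Some genes were called only in late against early pubertal testis. Among those with no call at early puberty, the largest rises in late testis were tex36, noxred1, foxj1a, a gene annotated as histone H1.5-like and vwa7. Foxj1a read 0.00, -1.41 and -0.96 in late fish and was at least 31.7-fold higher than in early fish (adjusted p = 9.75e-08). The histone H1.5-like gene was well above background in all fish, with -0.29, -0.96 and -1.32 in early fish, and was 5.60 ± 0.31 higher in late testis (adjusted p = 6.68e-10). Its early values overlapped those of the immature fish, which ran from -1.69 to -0.56. Among the largest falls in late testis, a gene annotated as Actin, alpha 1a, skeletal muscle read 5.66, 5.69 and 4.80 in early fish and was -2.46 ± 0.35 in late relative to early fish.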

How the data were processed

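RNA of 20 testes was hybridised to one-colour Agilent 44K salmon arrays, 1 fish per array. In the deposited scanner files, Agilent Feature Extraction 12.0.1.1 had subtracted the background from each spot intensity and detrended it within the array, per the file headers. The median pixel intensity of spot and background, also deposited, served for the normexp alternative. The authors also deposited processed intensities, with scaling not stated, used as an alternative. The 39 columns of other tissues were not used here.

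Control and outlier spots were left out, spots of a probe averaged, and log2 intensity minus the array's 75th percentile taken. Probes marked as well above background on 3 or more arrays of a fit were tested with limma 3.58.1 in R 4.3.3 (lmFit and eBayes, two-sided) and Benjamini-Hochberg adjustment. Calls needed an adjusted p below 0.05 and a log2-ER beyond 0.8 (1.741-fold). The 0.8 limit is that of the study's methods, which name a t-test and state no adjustment of p. A 3-group fit over 20 arrays gave late against early. Of 42386 probes, 25641 (60.5%) matched a gene of RefSeq (Ssal_v3.1), and other probes kept the names of the study's annotation tables.

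Members, gene lists and tests were chosen with earlier results of these data known. A gene was named if it was among the 4 largest called changes of a list or a marker fixed by name (15 of 31 had a tested probe), or among the 10 largest or most widely separated changes either way, or the 5 largest changes called only late against early. The 10 largest and the 10 most widely separated changes were taken only from calls whose groups did not overlap. For genes named on that ground, the lack of overlap was thus fixed by the rule. Most genes added outside this rule are named as such, but not all. Those given without a note include kdr, pecam1a, ptprc, dnah3, cfap99, col1a1a, col1a1b, aldh1a2, acta2, gata4, hoxc12aa, hoxc12ab and hoxb13ab. The rule did not select these genes. Cyclins caught by the growth factor list and psmc3ip in the proteasome list were removed after seeing the data. A probe below background in every fish of one group gives only a bound ("at least"). Fish are separate animals. On simulated data for early against immature testis over 36647 probes, 60% of 100 changes of 1.5 and 95% of 100 changes of 3 on the log2 scale were recovered, and 11 unchanged probes were called. All other probes were left unchanged there, with noise drawn independently for each probe. In the data 49.5% of probes were called, so these rates need not hold for the real comparison. The number of arrays, 3 early and 14 immature, limits the precision. Alternatives covered background correction, normalization, the filter, scan batch, slide, light group, the test, the limit and leaving out fish.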

Additional observations from a re-analysis of the deposited data

How the results depend on the processing

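Of the 18155 probes called early against immature, the count moved by more than 1.5 times in 3 settings: normexp correction (8162), the authors' processed values (11762) and light groups A and B alone (10436). Leaving out 1 early fish gave 15352 to 18086, the scan batch as a block 18394, the larger batch alone 17432, the smaller batch alone (chosen after seeing the data) 14700 and the slide as a random block 18330. For late against early, main count 7397, normexp gave 1460, the authors' values 2037, the methods' t-test after adjustment 158, the 6 pubertal arrays alone 1918, and leaving out 1 fish 4449 to 8092, the lowest without late fish 202. The cause was not tested.

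Calls in the main direction of a list also moved. With normexp correction the genes called lower were 3 of undifferentiated germ cells, 5 of sex hormone receptors and retinoic acid, 2 of oocytes, 15 growth factor, 8 hox, 19 extracellular matrix, 1 T lymphocyte, 10 complement and chemokine, 1 neural, 0 pituitary and 1 liver gene, and 0 skeletal muscle genes were higher. With quantile normalization 1 ribosomal, 15 mitochondrial and 2 proteasome genes were higher, and with arrays scaled to their median 20 ribosomal genes were. The authors' values gave 7 piRNA genes, 3 ribosomal genes and 0 skeletal muscle genes higher, and 13 hox, 22 extracellular matrix, 3 neural and 1 liver gene lower. Light groups A and B gave 6 piRNA, 3 ribosomal, 5 proteasome and 0 skeletal muscle genes higher, and 26 growth factor and 4 neural genes lower. Leaving out 1 early fish gave 4 to 24 ribosomal genes higher (24 without fish 213), 0 to 1 skeletal muscle genes higher, 1 to 3 pituitary genes lower and 1 liver gene lower.

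Of 4476 pairs of a gene and a setting, 4341 kept their call or their lack of one, 122 lost the call and 12 gained it. Direction was not compared where a gene was called in neither fit. No gene with a call changed direction. Noxred1, not called (log2-ER -0.35), was at 1.15 in the smaller scan batch alone, which held only 1 early fish. Normexp correction took the call from 49 genes, mostly dim ones. No paired analysis was possible because no replicate numbers link early and immature fish. Early probes near background limit 1850 of the lower calls to a bound.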

Other observations

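Some genes had opposite signs in the comparisons of early with immature and of late with early pubertal testis. They were chosen after their values were seen, from calls whose early and immature values did not overlap. Since both comparisons use the same early fish, the opposite signs have no test of their own. The SUMO ligase gene pias2 read 1.89, 2.27 and 3.07 at the lowest, median and highest immature fish, 5.22, 4.48 and 4.41 in early fish 184, 190 and 213, and 3.34, 2.30 and 3.43 in late fish 202, 211 and 245. Its log2-ER was 2.38 ± 0.25 (adjusted p = 4.92e-07) at early puberty, and the late fish were -1.68 ± 0.35 relative to early fish (adjusted p = 0.00181). The early fish stood above both other groups. Tex30, named for its testis expression, had the same shape, with a log2-ER of 1.73 ± 0.18 and then -1.30 ± 0.24.

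The opposite shape, lowest in early fish, was seen in larger steps. The ttc6 gene read -2.13, -0.40 and -0.12 at the lowest, median and highest immature fish, -2.64, -3.47 and -3.96 in early fish, and 2.72, 1.69 and 2.28 in late fish. Late fish were 5.59 ± 0.42 above early fish, and the groups did not overlap. Stpg1, named as a sperm tail repeat protein, was -1.5 ± 0.20 at early puberty and then 5.53 ± 0.26 higher, and it was well above background in every fish. A gene annotated as actin-3-like had a log2-ER of -1.52 ± 0.17 and was then 5.96 ± 0.31 higher. The homeobox gene nkx31 was -5.12 ± 0.47 and then 5.70 ± 0.62 higher, but it was well above background in 1 of the early fish. The kinesin gene kif21a was below background in all early fish and at least 55.5-fold higher in late fish. The call of stpg1 at early puberty was lost with normexp correction. It was also lost in the smaller scan batch alone, which held only 1 early fish.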
